A study of Mus musculus with 9 samples.

Results

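The genes described here are 10 genes of the NRF2 antioxidant programme, taken by symbol from the GENCODE M21 annotation: Nfe2l2, Keap1, Hmox1, Nqo1, Gclc, Gclm, Txnrd1, Srxn1, Slc7a11 and Sod2. Each symbol matched 1 gene identifier, so that 10 of the 55536 genes in the count tables are members. Their RNA was counted by sequencing of tissue described as whole quadriceps of C57BL/6 mice. There were 4 libraries labelled wild type (WT) and 5 labelled Il17ra-/-, a knockout of a receptor subunit for interleukin-17 cytokines. All mice of both groups had a volumetric muscle loss injury, the surgical removal of a block of muscle, and all are given an age of 6 weeks. The labels disagree on the rest: by the characteristics all animals had saline and were harvested at 1 week, by the extraction protocol they had PCL and were collected at 6 weeks, and which holds was not settled here. The design text speaks of 3 animals per genotype and no label ties a library to an animal, so the p-values measure the spread between these libraries. No uninjured muscle is among the samples.

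NRF2, the product of Nfe2l2, is a transcription factor that switches on genes for detoxification, glutathione synthesis and the repair of oxidised proteins. In unstressed cells KEAP1 binds NRF2 and hands it to the CUL3 ubiquitin ligase for degradation; electrophiles and oxidants modify cysteines of KEAP1, and NRF2 then accumulates, pairs with a small MAF protein and binds antioxidant response elements. Much of this control acts on the NRF2 protein, which RNA sequencing does not measure. In injured muscle, macrophages and other cells use the pathway to handle heme, iron and oxidants released from damaged fibres.

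Total counts ran from 31294089 to 46435401 per library, and the groups did not differ past the threshold in total counts (exact permutation p = 0.0635, two-sided). Il17ra itself was higher in the libraries labelled Il17ra-/- (208 ± 43.2 CPM, SD, n = 5) than in those labelled WT (96.8 ± 19.7 CPM, n = 4; log2 fold change 1.11, SE 0.17, adjusted p = 0.00208), which goes against a loss of the whole transcript. Directions are therefore those of the labels. CPM is a gene's count relative to its scaled library total. WT replicate 2 was far from the remaining 8 libraries on principal component 1. It also had the lowest total count and the fewest genes with a count, 17256. Il17ra-/- replicate 1 was next with 18248 such genes, and WT replicates 1, 3 and 4 had 20229 to 20945. Of the cell type marker lists that were checked, that of 12 fibroblast markers had the highest summed level, at 91651 to 104048 CPM in WT. The sum of 13 muscle fibre markers was far lower, at 1174 to 2976 CPM in WT. Leukocyte markers were near 0: 12 of them summed to 0 to 2.16 CPM in WT and 0.356 to 2.14 CPM in Il17ra-/-. Retnlg, Csf3r, Ms4a1 and Nkg7 had no count in any library. How far these libraries represent whole muscle was not tested. In such bulk samples, fewer cells of a type and less RNA per cell cannot be told apart.

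In the libraries labelled Il17ra-/-, 2 of the 10 members fell and none rose: Hmox1, the inducible heme oxygenase, and Txnrd1, the cytosolic thioredoxin reductase. Srxn1, sulfiredoxin, was lower in every Il17ra-/- library than in any WT library but did not pass the test. The gene of the factor itself, Nfe2l2, that of its inhibitor, Keap1, and the target genes Nqo1, Gclc, Gclm and Sod2 did not pass, and Slc7a11 was close to the limit of detection. All 10 members passed the filter on low counts, and the 2 calls can be read against a background of 3.06% of 16039 tested genes called in either direction, 1.71% called lower and 1.35% called higher (edgeR's quasi-likelihood test, adjusted p under 0.05). At an unadjusted p under 0.05, 3 members were lower and none higher, where 16.4% of all tested genes passed, 8.27% lower and 8.13% higher. DESeq2 also called 2 lower and none higher, against 7.41% of the 14448 genes to which it gave an adjusted p, 3.56% lower and 3.85% higher. Limma-voom called the same numbers of members, against 3.11% of all genes, 1.72% lower and 1.39% higher. The median log2 fold change of the 10 was 0.05, against 0.00 for all tested genes, with 6 positive and 4 negative values.

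**Figure D1:**
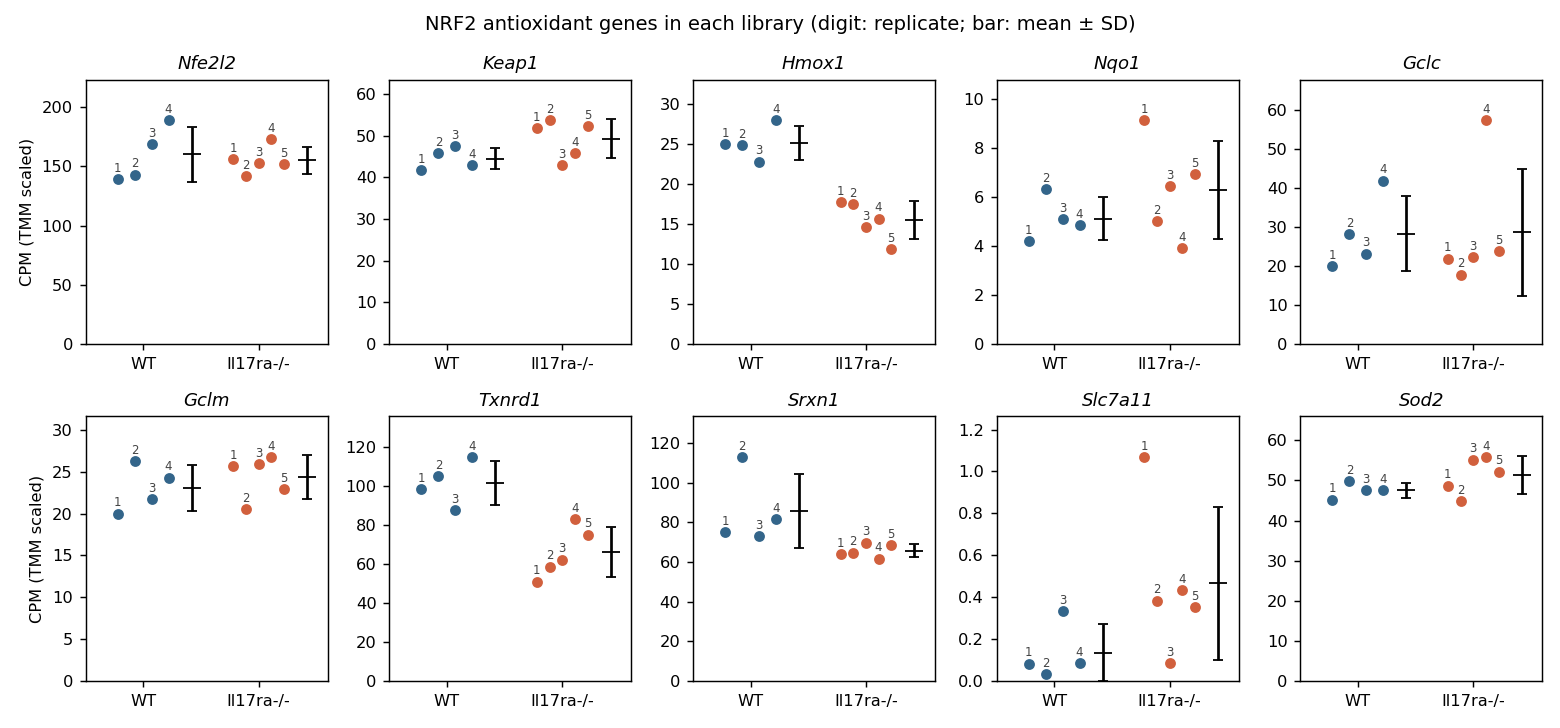
CPM (vertical axis, from 0, TMM scaled) of the 10 members in the 4 libraries labelled WT (blue) and the 5 labelled Il17ra-/- (orange); digits are replicate numbers, and the bar beside each group is the mean ± SD (that of Slc7a11 in WT ends at the axis). The groups are separate for Hmox1, Txnrd1 and Srxn1 and overlap for the other 7 genes, and Gclc is highest in replicate 4 of both groups.

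The factor and its inhibitor came first. Nfe2l2 spans 75675513 to 75704641 of chromosome 2 (GRCm38, as all positions here), minus strand. It stood at 139, 143, 169 and 189 CPM in WT replicates 1 to 4 and at 156, 142, 153, 173 and 152 CPM in Il17ra-/- replicates 1 to 5. The Il17ra-/- values all lay within the WT range, and the means were 160 ± 23.5 CPM (n = 4) and 155 ± 11.3 CPM (n = 5). The log2 fold change was −0.04 (SE 0.11, 95% interval −0.29 to 0.20, adjusted p = 0.888), so the interval reaches from 0.818-fold to 1.15-fold. Keap1 spans 21229730 to 21239361 of chromosome 9, minus strand. It stood at 41.7, 45.8, 47.4 and 43.0 CPM in WT and at 51.7, 53.7, 42.9, 45.7 and 52.2 CPM in Il17ra-/-. The highest 3 values were those of Il17ra-/- replicates 2, 5 and 1, but the groups overlapped (log2 fold change 0.15, SE 0.11, 95% interval −0.08 to 0.38, adjusted p = 0.535). Within a library, the log2 ratio of Nfe2l2 to Keap1 CPM was 1.84 ± 0.21 (n = 4) in WT and 1.66 ± 0.21 (n = 5) in Il17ra-/- (exact permutation p = 0.254, two-sided). Exons of Keap1 share 510 bases with the antisense gene Gm16754, which averaged 20.8 counts per library against at least 1397 for Keap1, and the counts were made without strand.

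Hmox1, which opens the ring of heme to biliverdin, carbon monoxide and free iron, fell. Its place is chromosome 8, 75093621 to 75100589, plus strand. The WT libraries held 25.0, 24.9, 22.8 and 28.0 CPM and the Il17ra-/- libraries 17.8, 17.5, 14.6, 15.7 and 11.9 CPM. Every Il17ra-/- library was below every WT library, and replicate 5 was the lowest of all. Such a separation was seen in 3 of the 10 members, all lower in Il17ra-/-, and in 9.18% of all tested genes, 4.56% lower and 4.63% higher. The means were 25.2 ± 2.14 CPM (n = 4) and 15.5 ± 2.39 CPM (n = 5), with a log2 fold change of −0.70 (SE 0.14, 95% interval −1.01 to −0.39, adjusted p = 0.0155), which is 1.62-fold. Each library held 506 to 976 counts of the gene. The call was lost without WT replicate 4 (−0.64, adjusted p = 0.0562) and without Il17ra-/- replicate 3 (−0.68, adjusted p = 0.0528), and the log2 fold change over all alternatives ran from −0.76 to −0.61.

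Genes and cells tied to heme were read beside Hmox1. The constitutive heme oxygenase Hmox2 is a separate gene, and the log2 ratio of Hmox1 to Hmox2 CPM was −0.15 ± 0.22 (n = 4) in WT and −0.82 ± 0.23 (n = 5) in Il17ra-/-, without overlap (exact permutation p = 0.0159, the smallest this design can give; adjusted p = 0.0286 over 9 gene pairs chosen after the values were seen). With 1 library left out the smallest possible p rises to 0.0357 (a WT library) or 0.0286 (an Il17ra-/- library). The 5 pairs that passed with all libraries then had an adjusted p of 0.0643 without any one of the WT libraries, 0.0515 without any one of Il17ra-/- replicates 1 to 4 and 0.0429 without replicate 5. The Hmox1 to Hmox2 difference of −0.68 was −0.78 without WT replicate 2. Macrophages are a known source of Hmox1. Of 15 myeloid markers, 10 were tested and 1, Cd68, fell, from 17.9 ± 5.20 (n = 4) to 2.58 ± 1.01 CPM (n = 5; log2 fold change −2.80, SE 0.30, adjusted p = 2.17e-04), and the summed level of the list was 30.3 to 45.8 CPM in WT and 15.8 to 24.1 CPM in Il17ra-/-. Without Cd68 the sum of the other 14 was 14.2 to 21.6 CPM and 13.8 to 21.5 CPM. Of the 10 tested markers, 6 had positive and 4 negative log2 fold changes, with a median of 0.46 against 0.00 for all tested genes. At an unadjusted p under 0.05 (edgeR), 1 was lower and 1 higher. Marco had no count in any library and Itgam had counts in 1 library. The part of Cd68-expressing cells in the fall of Hmox1 was not tested. Of 7 red blood cell markers 5 were tested and none passed (none by DESeq2 or at an unadjusted p under 0.05), and their sum was 29.1 to 161 CPM in WT and 83.3 to 145 CPM in Il17ra-/-.

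The second member to fall, Txnrd1, encodes the selenium-containing enzyme that recharges thioredoxin with electrons from NADPH. Its place is chromosome 10, 82833951 to 82897712, plus strand. Its partner in the peroxiredoxin cycle, Srxn1, reduces peroxiredoxins that peroxide has over-oxidised, and is found on chromosome 2, 152105516 to 152111376, plus strand. Promoter windows of 250 bases before to 50 bases after annotated starts (RefSeq, GRCm38.p6) were at hand for 8 of the 10 members. These are 10 windows, since Txnrd1 has 3 starts. No window was at hand for Hmox1 and Gclc, which were therefore not searched. The 2 windows below are shown because Txnrd1 and Srxn1 were lower in every Il17ra-/- library and their windows hold matches to the letters of an antioxidant response element. The first is the second Txnrd1 start, chr10:82858956-82859255, and the other is Srxn1, chr2:152105274-152105573, both on the plus strand. Capitals mark matches to TGACNNNGC, to TGAGTCAGC or to TGANTCA on either strand.
Txnrd1: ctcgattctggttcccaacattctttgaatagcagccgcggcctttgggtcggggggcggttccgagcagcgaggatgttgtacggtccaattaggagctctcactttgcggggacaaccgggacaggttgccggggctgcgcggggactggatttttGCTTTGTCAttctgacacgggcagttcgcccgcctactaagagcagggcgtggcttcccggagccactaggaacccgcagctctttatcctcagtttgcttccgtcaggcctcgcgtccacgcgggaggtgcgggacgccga
Srxn1: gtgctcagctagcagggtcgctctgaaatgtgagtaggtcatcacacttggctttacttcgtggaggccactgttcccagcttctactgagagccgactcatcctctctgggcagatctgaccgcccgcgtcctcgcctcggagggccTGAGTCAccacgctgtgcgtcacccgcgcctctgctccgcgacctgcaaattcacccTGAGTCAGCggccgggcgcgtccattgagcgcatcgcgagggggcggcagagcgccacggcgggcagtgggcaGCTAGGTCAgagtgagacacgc

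TGACNNNGC is the core of the antioxidant response element, and TGANTCA is the element of AP-1 factors. The longer TGAGTCAGC holds TGANTCA and adds the GC of the antioxidant response element, so these motifs overlap. In the Txnrd1 window, TGACAAAGC lies on the opposite strand at −92 to −84, counted from 0 at the annotated start. In the Srxn1 window, TGAGTCAGC lies at −45 to −37, a second TGAGTCA at −102 to −96, and TGACCTAGC on the opposite strand at 28 to 36. A match to TGACNNNGC was found in 12.4% of all 32851 promoter windows, one to TGANTCA in 7.81%, and one to TGAGTCAGC in 0.414%. Of the 10 member windows, 4 held TGACNNNGC: these 2, that of Nfe2l2 (TGACTCCGC at −240 to −232) and that of Gclm (TGACGGTGC on the opposite strand at −134 to −126). The other motifs were found in the Srxn1 window alone among these 10. A match describes letters and is not a measured binding site.

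Txnrd1 stood at 98.5, 105, 87.7 and 115 CPM in WT and at 51.0, 58.7, 62.2, 82.9 and 75.1 CPM in Il17ra-/-. The groups did not overlap, although Il17ra-/- replicate 4, the highest of its group, came close to WT replicate 3, the lowest of the other. The means were 102 ± 11.5 CPM (n = 4) and 66.0 ± 12.8 CPM (n = 5), and the log2 fold change was −0.62 (SE 0.14, 95% interval −0.93 to −0.32, adjusted p = 0.0295), which is 1.54-fold. The call was lost without WT replicate 1 (adjusted p = 0.0577), WT replicate 4 (0.0855), or Il17ra-/- replicates 1 (0.0694), 2 (0.0862) or 3 (0.0861), without WT replicate 2 and Il17ra-/- replicate 1 together (0.0510), and with scaling by library totals only (−0.55, adjusted p = 0.0634). The log2 fold change over all alternatives ran from −0.72 to −0.53.

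The other thioredoxin reductases were read within the same libraries. The log2 ratio of Txnrd1 to Txnrd3 was 2.76 ± 0.27 (n = 4) in WT and 1.87 ± 0.20 (n = 5) in Il17ra-/- (exact permutation p = 0.0159, adjusted p = 0.0286 over the 9 pairs). The pairs were chosen with the separation of Txnrd1 known, so this ratio is not independent of it. The ratio to Txnrd2, the mitochondrial enzyme, was 3.49 ± 0.46 and 2.79 ± 0.32, where the difference did not pass after adjustment (exact permutation p = 0.0476, adjusted p = 0.0714).

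Srxn1 stood at 74.9, 113, 73.0 and 81.7 CPM in WT and at 63.8, 64.7, 69.7, 61.7 and 68.5 CPM in Il17ra-/-. The Il17ra-/- values were tightly grouped, all of them below the lowest WT library, and WT replicate 2 was far above the rest. The means were 85.8 ± 18.8 CPM (n = 4) and 65.7 ± 3.36 CPM (n = 5), and the difference did not pass over all genes (log2 fold change −0.38, SE 0.13, 95% interval −0.66 to −0.10, adjusted p = 0.150). Without WT replicate 2 it was −0.22 (SE 0.08, adjusted p = 0.215).

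**Figure D2:**
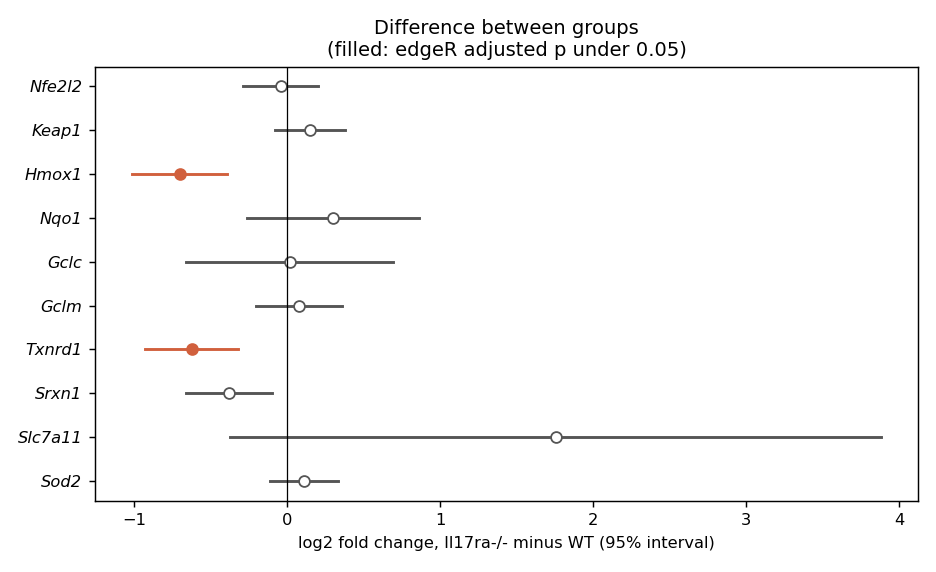
Log2 fold change (horizontal axis, Il17ra-/- minus WT) of each member with its 95% interval; filled points passed edgeR's test at an adjusted p under 0.05. The intervals of Hmox1, Txnrd1 and Srxn1 lie below 0, and that of Slc7a11 is the widest, from −0.37 to 3.88.

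The members that supply glutathione did not pass. GCLC and GCLM are the catalytic and the modifier subunit of glutamate-cysteine ligase, the rate-limiting enzyme of glutathione synthesis. Gclc, at 77754535 to 77794485 of chromosome 9 (plus strand), stood at 20.0, 28.2, 23.2 and 41.9 CPM in WT and at 21.9, 17.8, 22.4, 57.4 and 23.8 CPM in Il17ra-/-. Replicate 4 was the highest library of each group, and the spread was the widest of the members apart from Slc7a11, at 34.1% of the mean in WT and 56.6% in Il17ra-/- (SD). The log2 fold change was 0.02 (SE 0.32, 95% interval −0.66 to 0.69, adjusted p = 0.989), and it was −0.40 (adjusted p = 0.414) without Il17ra-/- replicate 4 and 0.27 (adjusted p = 0.724) without WT replicate 4.

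Gclm, at 122245557 to 122270732 of chromosome 3 (plus strand), did not share that peak. It stood at 20.0, 26.3, 21.7 and 24.3 CPM in WT and at 25.7, 20.5, 25.9, 26.8 and 22.9 CPM in Il17ra-/-, so that all 9 libraries lay in a narrow band (log2 fold change 0.08, SE 0.13, 95% interval −0.20 to 0.36, adjusted p = 0.812). The log2 ratio of Gclc to Gclm was 0.78 in WT replicate 4 and 1.10 in Il17ra-/- replicate 4, the highest of their groups, whose means were 0.25 ± 0.36 (n = 4) and 0.10 ± 0.57 (n = 5; exact permutation p = 0.635). Exons of Gclm share 296 bases with the non-coding gene Gm17494 on the opposite strand, which averaged 7.9 counts per library, and 244 bases with the pseudogene Gm6061, which had none.

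Slc7a11 encodes the transport chain of the cystine-glutamate exchanger xCT, which brings in cystine for glutathione synthesis. Its place is chromosome 3, 49892526 to 50443614, minus strand. It had 3, 1, 12 and 3 counts in the WT libraries and 42, 18, 4, 16 and 15 in the Il17ra-/- libraries, which sum to 19 and 95. Il17ra-/- replicate 1 held the most and replicate 3 overlapped the WT range. It passed the filter on low counts through the group in which it is higher, since 3 of 4 WT libraries and 1 of 5 Il17ra-/- libraries had fewer than 10 counts. The fitted log2 fold change of 1.76 (SE 0.99, 95% interval −0.37 to 3.88, adjusted p = 0.405) was not past the threshold, and at these counts no direction can be given. It was 2.73 without WT replicate 3, 1.20 without Il17ra-/- replicate 1, and 0.89 without both WT replicate 2 and Il17ra-/- replicate 1. Its partner chain Slc3a2, which also serves other amino acid transporters, was far more abundant at 99.4, 171, 103 and 123 CPM in WT and 72.6, 80.2, 83.5, 103 and 94.2 CPM in Il17ra-/- (log2 fold change −0.52, SE 0.16, adjusted p = 0.113), and −0.32 without WT replicate 2 (adjusted p = 0.188).

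The last members were Nqo1, a quinone reductase often used as a readout of NRF2 activity, and Sod2, the manganese superoxide dismutase of mitochondria, which inflammatory signals also induce. Nqo1, at 107388225 to 107403206 of chromosome 8 (minus strand), stood at 4.19, 6.33, 5.11 and 4.85 CPM in WT and at 9.13, 5.00, 6.45, 3.90 and 6.94 CPM in Il17ra-/-. Il17ra-/- libraries were both the highest (replicate 1) and the lowest (replicate 4) of the 9 (log2 fold change 0.30, SE 0.26, 95% interval −0.26 to 0.86, adjusted p = 0.621), and the value was 0.12 without replicate 1. Sod2, at 13006846 to 13040063 of chromosome 17 (plus strand), stood at 45.2, 49.9, 47.5 and 47.5 CPM in WT and at 48.7, 44.8, 55.2, 55.9 and 52.2 CPM in Il17ra-/-. The 3 highest values were in Il17ra-/-, and so was the lowest (log2 fold change 0.11, SE 0.10, 95% interval −0.11 to 0.33, adjusted p = 0.641). Sod2 was higher relative to the cytosolic enzyme Sod1 in Il17ra-/-, with a log2 ratio of −1.10 ± 0.13 (n = 5) against −1.51 ± 0.31 (n = 4; exact permutation p = 0.0159, adjusted p = 0.0286 over the 9 pairs). Sod1 in WT replicate 2 stood at 195 CPM, against 118 CPM in the lowest WT library and 110 ± 1.87 CPM (n = 5) in Il17ra-/-. Sod1 was itself lower in every Il17ra-/- library than in any WT library, so the ratio is not independent of that separation. The pair was chosen after the values were seen. Without WT replicate 2 the WT mean of the ratio was −1.36 ± 0.03 (n = 3) and the difference fell from 0.41 to 0.26 (exact permutation p = 0.0357, adjusted p = 0.0643). The ratio to the secreted enzyme Sod3 did not differ past the threshold (exact permutation p = 0.111, adjusted p = 0.143).

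Levels between genes were compared per length, as CPM per kilobase of exon in the libraries labelled WT. The length is that of all annotated exons of a gene, 10008 bases for Sod2 and 1751 for Hmox1, so the order also depends on the annotation. Which transcripts were expressed was not tested. Nfe2l2 was the highest at 42.1 ± 6.20 (SD, n = 4), followed by Srxn1 at 30.4 ± 6.66. Hmox1 at 14.4 ± 1.22 and Txnrd1 at 14.3 ± 1.63 came next and did not differ beyond their spread. Keap1 stood at 9.48 ± 0.548 and Gclc at 7.52 ± 2.56, a difference within the SD of Gclc but larger than that of Keap1. Sod2 at 4.75 ± 0.193, Gclm at 3.67 ± 0.443 and Nqo1 at 3.30 ± 0.576 formed the lower end, where the SDs of Gclm and Nqo1 overlap, and Slc7a11 was at 0.00963 ± 0.00979. In Il17ra-/-, Keap1 at 10.5 ± 0.994 (n = 5) stood above Txnrd1 at 9.31 ± 1.81 and Hmox1 at 8.85 ± 1.36, with overlapping SDs.

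The genes around these members were read from 6 lists with 127 entries, of which 118 were tested. By edgeR's adjusted p 3 genes in them fell and none rose, which is 2.54% of those tested and close to the background of 3.06%. The median log2 fold change of the tested genes was −0.13, against 0.00 for all genes. DESeq2 called 11 of the listed genes, against 7.41% of all genes to which it gave an adjusted p. In the lists of regulators, other targets and glutathione genes, more were lower than higher at an unadjusted p under 0.05. In the other lists the numbers were equal. In the list of NRF2 regulators and partners, Maff fell and the other 17 of 18 did not pass by edgeR. At an unadjusted p under 0.05, 5 were lower and none higher, where 8.27% of all genes were lower and 8.13% higher. DESeq2 called 3 lower and none higher, against 3.56% and 3.85% of all genes to which it gave an adjusted p. MAFF is one of the small MAF proteins that pair with NRF2 or with its competitor BACH1, and its gene also responds early to stress. Maff stood at 133, 204, 125 and 124 CPM in WT and at 47.5, 67.7, 43.8, 74.9 and 75.5 CPM in Il17ra-/-, with every Il17ra-/- library below every WT library (log2 fold change −1.24, SE 0.19, adjusted p = 0.00284). WT replicate 2 was the highest, and without it the value was −1.03 (adjusted p = 0.00274). Mafk, another small MAF gene, stood at 118 ± 10.6 CPM (n = 4) against 83.8 ± 15.9 CPM (n = 5) and did not pass (−0.49, SE 0.14, adjusted p = 0.0742), nor did Syvn1, a ubiquitin ligase of the endoplasmic reticulum (−0.51, adjusted p = 0.0698). DESeq2 called Mafk (adjusted p = 0.0193) and Syvn1 (adjusted p = 0.0189) lower. Maff was lower relative to both Mafk and Mafg within libraries, by −0.74 and −0.99 on the log2 scale (exact permutation p = 0.0159 for each, adjusted p = 0.0286 over the 9 pairs). These pairs were chosen after the values were seen. The ratios share the separation of Maff itself and are not a second, independent result.

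**Figure D3:**
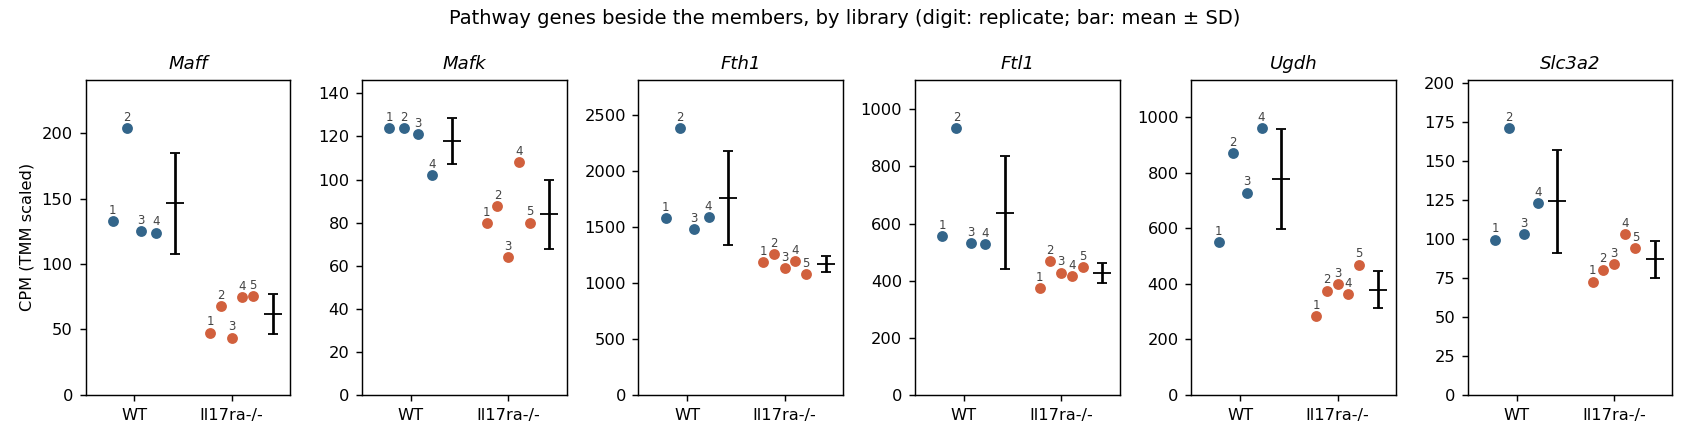
CPM (vertical axis, from 0, TMM scaled) of 6 genes from the other lists in the libraries labelled WT (blue) and Il17ra-/- (orange); digits are replicate numbers and the bar is the mean ± SD. WT replicate 2 is the highest WT library for Maff, Fth1, Ftl1 and Slc3a2, and the groups overlap for Mafk and Slc3a2.

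Among 28 tested genes of the list of other NRF2 targets, Fth1 and Ugdh fell and none rose, with 7 lower and 1 higher at an unadjusted p under 0.05 and 5 lower and 1 higher by DESeq2. Among all genes the unadjusted cut took 16.4%, 8.27% lower and 8.13% higher, and DESeq2 called 7.41%, 3.56% lower and 3.85% higher. These shares also hold for the counts of the lists below. By edgeR's adjusted p 7.14% of this list was called, against 3.06% of all genes. The median of this list was −0.18, against 0.00 for all tested genes. Fth1 is the heavy chain of ferritin, which stores the iron that heme oxygenase frees. It stood at 1575, 2384, 1481 and 1587 CPM in WT and at 1188, 1259, 1133, 1194 and 1075 CPM in Il17ra-/-, separate in all libraries (log2 fold change −0.59, SE 0.14, adjusted p = 0.0333). Its value was −0.40 without WT replicate 2 (adjusted p = 0.0174), and its call was lost without any one of Il17ra-/- replicates 1 to 5 (adjusted p = 0.0754, 0.0648, 0.0953, 0.0767 and 0.0858) and with library totals alone (0.0514). Ftl1, the light chain, stood at 557, 935, 532 and 528 CPM in WT and at 375, 469, 428, 416 and 448 CPM in Il17ra-/-, without overlap but not past the threshold (−0.58, SE 0.16, adjusted p = 0.0787; −0.33 without WT replicate 2, adjusted p = 0.0633). The annotation holds pseudogenes named Ftl1-ps1 and Ftl1-ps2, with 396 and 9 counts over all libraries. How reads shared with such copies bear on the ferritin counts was not tested.

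Ugdh makes UDP-glucuronate, which serves glucuronidation and also hyaluronan and proteoglycan synthesis. It stood at 549, 871, 729 and 962 CPM in WT and at 284, 376, 398, 364 and 469 CPM in Il17ra-/-. The highest Il17ra-/- library, replicate 5, was below the lowest WT library, replicate 1 (log2 fold change −1.04, SE 0.17, adjusted p = 0.00367). Maff and Ugdh stayed called under all 19 alternatives.

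The remaining 4 lists held no call by edgeR. In the list of glutathione synthesis and use, 23 of 25 values were negative and the median was −0.16. At an unadjusted p under 0.05, 6 were lower and none higher, where 16.4% of all genes passed, 8.27% lower and 8.13% higher. By DESeq2 1 was lower. Its smallest p-values belonged to Slc3a2, to Dpep1, a dipeptidase of glutathione breakdown (−0.36, adjusted p = 0.166), and to Gpx1, the cytosolic glutathione peroxidase (−0.37, adjusted p = 0.178; −0.21 without WT replicate 2). Of 20 tested superoxide, peroxide and thioredoxin enzymes, 1 was lower and 1 higher at an unadjusted p under 0.05 and none was called by DESeq2. They were Txnip, an inhibitor of thioredoxin (0.49, SE 0.20, adjusted p = 0.238), and Sod1 (−0.34, SE 0.14, adjusted p = 0.258), and the third by p was Prdx6, a peroxiredoxin (−0.30, adjusted p = 0.335). Without WT replicate 2, Sod1 and Prdx6 were both at −0.12 (adjusted p = 0.482 and 0.677), and Sod1 no longer passed at an unadjusted p under 0.05. Of 20 tested heme and iron genes, 2 were lower and 2 higher at an unadjusted p under 0.05 and 1 was lower by DESeq2. The smallest p-values were those of the transferrin gene Trf (−0.89, adjusted p = 0.0958), of Uros, an enzyme of heme synthesis (−0.53, adjusted p = 0.162), and of Slc40a1, the iron exporter ferroportin (0.79, adjusted p = 0.166). Trf was at −0.59 without both WT replicate 2 and Il17ra-/- replicate 1. Of 13 NADPH oxidase genes, which make superoxide, 7 were tested and none passed at an unadjusted p under 0.05 or by DESeq2. The 3 smallest p-values were those of Cyba (−0.22, adjusted p = 0.356), Duox1 (−0.28, adjusted p = 0.474) and Nox4 (0.28, adjusted p = 0.541). Single libraries moved each of them: Cyba was at −0.13 and Nox4 at 0.11 without WT replicate 2, Nox4 at 0.48 without WT replicate 1, and Duox1 at −0.05 without WT replicate 4. Cybb, the oxidase chain of phagocytes, did not exceed 0.472 CPM.

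**Figure D4:**
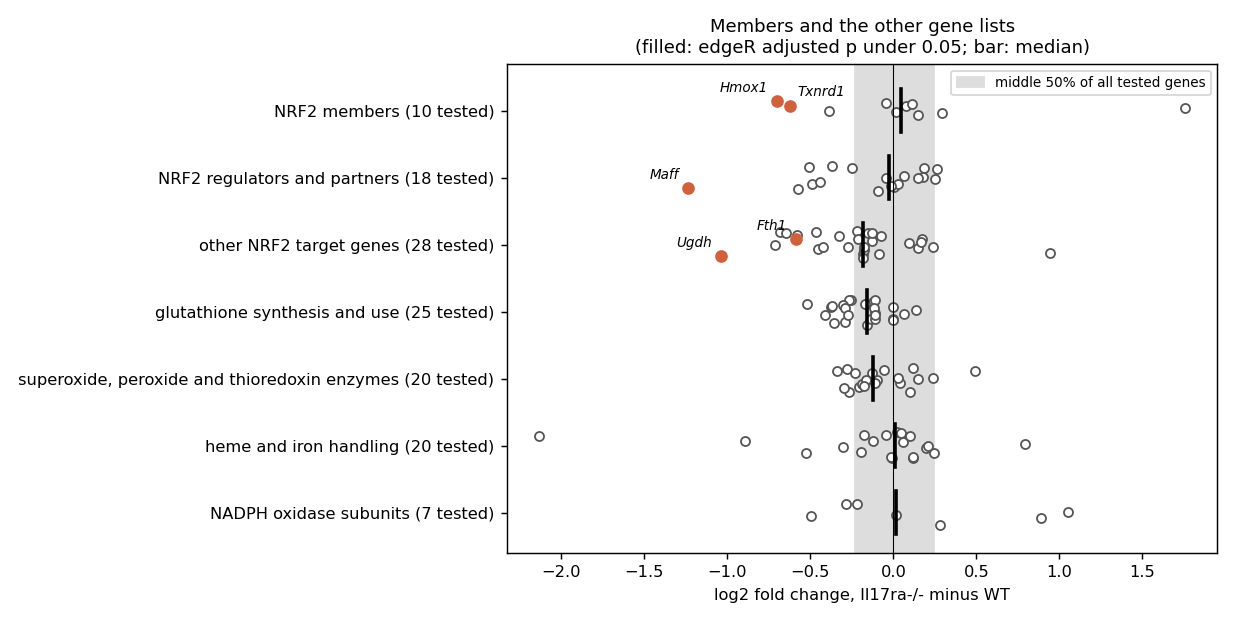
Log2 fold change (horizontal axis, Il17ra-/- minus WT) of the tested genes of the member list and of 6 other lists, 1 row per list; filled points passed edgeR's test at an adjusted p under 0.05, the black bar is the list's median and the grey band holds the middle 50% of all tested genes. The 5 filled points, Hmox1, Txnrd1, Maff, Ugdh and Fth1, all lie below 0.

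Markers of several cell types were read against the background of 3.06% of all tested genes called, 1.35% higher and 1.71% lower. Of 13 muscle fibre markers 6 rose (46.2%: Acta1, Mb, Myh2, Myh7, Tnnc1 and Tnnt1) and none fell. The other 7, Ckm, Myh1, Myh4, Pvalb, Tnnc2, Tnnt3 and Ttn, did not pass. The sum of the list was 1174 to 2976 CPM in WT and 3341 to 4431 CPM in Il17ra-/-. Of 10 pericyte and smooth muscle markers 6 rose (60%: Abcc9, Cspg4, Kcnj8, Myh11, Notch3 and Rgs5), with sums of 1267 to 1609 CPM and 2167 to 2914 CPM. Of 10 adipocyte markers 2 rose (20%: Adipoq and Car3), as did 2 of 8 satellite cell markers (25%: Cdh15 and Pax7). The satellite cell marker Sdc4 went the other way, lower in every Il17ra-/- library than in any WT library (−0.40, adjusted p = 0.114). At an unadjusted p under 0.05 (edgeR), 6 satellite cell markers were higher and 1 lower, and DESeq2 called 5 higher and 1 lower. Of 10 endothelial markers none passed by edgeR, with 1 lower and 1 higher at an unadjusted p under 0.05 and 1 higher by DESeq2. Of 12 fibroblast markers only 1, Pi16, fell (−0.55, adjusted p = 0.0207), with sums of 91651 to 104048 CPM and 83382 to 109565 CPM. Of 10 Schwann cell markers only 1, Pmp22, fell (−0.48, adjusted p = 0.0229). Over the 19 alternatives the call was lost in 9 for Adipoq, 7 for Pmp22 and 6 for Acta1. It was lost in 4 for Pi16, 4 for Abcc9 and 3 for Cspg4. The part of these markers in the values of Hmox1, Txnrd1, Maff, Fth1 and Ugdh was not tested.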

How the data were processed

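The deposited values are whole-number counts of read pairs over the exons of each gene. The authors obtained them with featureCounts 1.6.0, without strand and with the GENCODE M21 annotation (GRCm38), per the file headers. STAR is the aligner in the submitters' processing notes, with no version stated. The labels' protocols state TruSeq v2 libraries and an RNA integrity above 8.0. All 55536 gene identifiers matched the annotation.

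Genes were filtered with filterByExpr (16039 kept), scaled with TMM, and compared with edgeR 4.0.16 (R 4.3.3) by the two-sided quasi-likelihood test, with genotype label as the only term over all 9 libraries. P-values were adjusted by Benjamini-Hochberg over all tested genes, and a gene was called at an adjusted p under 0.05. Log2 fold changes are Il17ra-/- minus WT, and the SE is the absolute value over the square root of F. The 95% intervals use the test's own degrees of freedom. Exact permutation tests ran over the 126 splits of 9 libraries into 4 and 5, with a smallest two-sided p of 0.0159. Limma 3.58.1 (voom) and DESeq2 1.42.0 were alternatives. A count of 3 corresponds to 0.0646 to 0.0959 CPM, for counting error only.

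The members and lists were chosen with earlier results of these data known. Named genes are all members, the called genes of each list and, where fewer than 3 were called, those with the smallest p up to 3; of the cell type lists, called genes appear by count or name. On simulated counts for the comparison of 4 against 5 libraries over 15527 genes, the test recovered 34.8% of 1.5-fold, 71.4% of 2-fold and 92.6% of 4-fold changes, and 6 of 138 calls were false. Changes were placed only in genes above a floor of mean CPM, which Slc7a11 at 0.318 CPM did not reach. No outlying library such as WT replicate 2 was simulated, so these shares do not cover such cases.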

Additional observations from a re-analysis of the deposited data

Results flagged for a closer look

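In 110 groups of values checked, 9 held a value far from the rest, by Dixon's gap over the group's range at the 95% level, which chance exceeds in about 1 in 20 groups. Gclc was highest in Il17ra-/- replicate 4 at 57.4 CPM. Maff (204 CPM), Fth1 (2384 CPM), Ftl1 (935 CPM) and Sod1 (195 CPM) were highest in WT replicate 2, the library that stood apart on the first principal component. Mafk was lowest in WT replicate 4 at 102 CPM, and Duox1 was lowest in Il17ra-/- replicate 1 at 67.1 CPM. Among cell type markers, the slow troponin gene Tnnt1 was lowest in Il17ra-/- replicate 5 at 22.4 CPM and the adiponectin gene Adipoq was highest in Il17ra-/- replicate 2 at 9.96 CPM.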

How the results depend on the processing

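The 19 alternatives comprised other scalings, tests and filters, a replicate block, and fits without libraries, of which the fit without both WT replicate 2 and Il17ra-/- replicate 1 was chosen after seeing the data, as were the gene pair ratios without each library. No log2 fold change of a called member or pathway gene changed sign. The count of members called was 1 with library totals only, 1 with the replicate block and 1 without those 2 libraries together, and 0 to 2 when 1 library was left out (0 without WT replicate 4 or Il17ra-/- replicate 3). Over all genes, DESeq2 called 1071 and the fits without 1 library called 275 to 567, against 491. Of the other pathway genes, DESeq2 called 11 and the fits without 1 library 2 to 5, against 3. Lower genes made up 55.8% of all calls, but 41.3% with library totals only. Replicate numbers are shared by the titles, but same-numbered libraries deviated together only weakly (r = 0.03 to 0.08), so they were not taken as pairs; with the replicate block 363 genes were called, and Hmox1 stood at −0.62 (adjusted p = 0.0696), Txnrd1 at −0.69 (adjusted p = 0.0240) and Fth1 at −0.53 (adjusted p = 0.0723). The causes were not tested. On the first 2 principal components only WT replicate 2 stood apart, so the planned fit without outlying libraries was the fit without it. Depth limits Slc7a11, with 1 to 42 counts per library.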
